A study of Mus musculus with 6 samples.

Results

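The transcripts described here are those of 10 genes of fibroblast activation and transforming growth factor beta (TGF-beta) signalling: the ligands Tgfb1, Tgfb2 and Tgfb3, the fibroblast genes Pdgfra, Ddr2, Tcf21 and Gsn, and the matrix genes Postn, Ctgf and Fn1. They were taken by symbol from a table of 21705 genes, and all 10 were found and tested. RNA came from whole hearts of female wild-type mice of the FVB strain, 12 to 16 weeks old. Vehicle, headed as PBS control in the table, was given to 3 mice, and trametinib, which blocks the kinases MEK1 and MEK2, to 3 others at 3 mg/kg once daily. Treatment lasted 14 days in both arms. Each heart is labelled as a separate female, and p-values measure the spread among these 6 hearts.

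TGF-beta is secreted as a latent complex that is bound to the matrix through latent TGF-beta binding proteins and is released by integrins and proteases. The free ligand binds the type II receptor, which recruits the type I receptor, and Smad2 and Smad3 then enter the nucleus with Smad4. In the mouse heart, resident fibroblasts carry Pdgfra and Tcf21, and fibroblasts activated by injury turn on Postn and deposit collagens and fibronectin.

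With trametinib, the transcripts of Gsn, Postn and Tcf21 fell and that of Ddr2 rose in every setting tried. Ctgf fell and Pdgfra rose past the threshold as well, but both calls depended on which hearts were used. The 3 ligand transcripts and Fn1 did not pass. In all, 4 of 10 genes were lower and 2 higher at an adjusted p below 0.05 (limma), where 22.8% of all 13581 genes tested were lower and 21.6% higher (44.5% in either direction). The 3 values of an arm lay wholly below those of the other for 3 members (29.5% of all genes) and wholly above for 2 (27% of all genes; 56.5% either way). The share of members that were higher was therefore close to that of all genes, and the lower share rests on 4 genes. The median log2 fold change of the 10 genes was -0.17, against -0.01 over all genes tested.

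**Figure D1:**
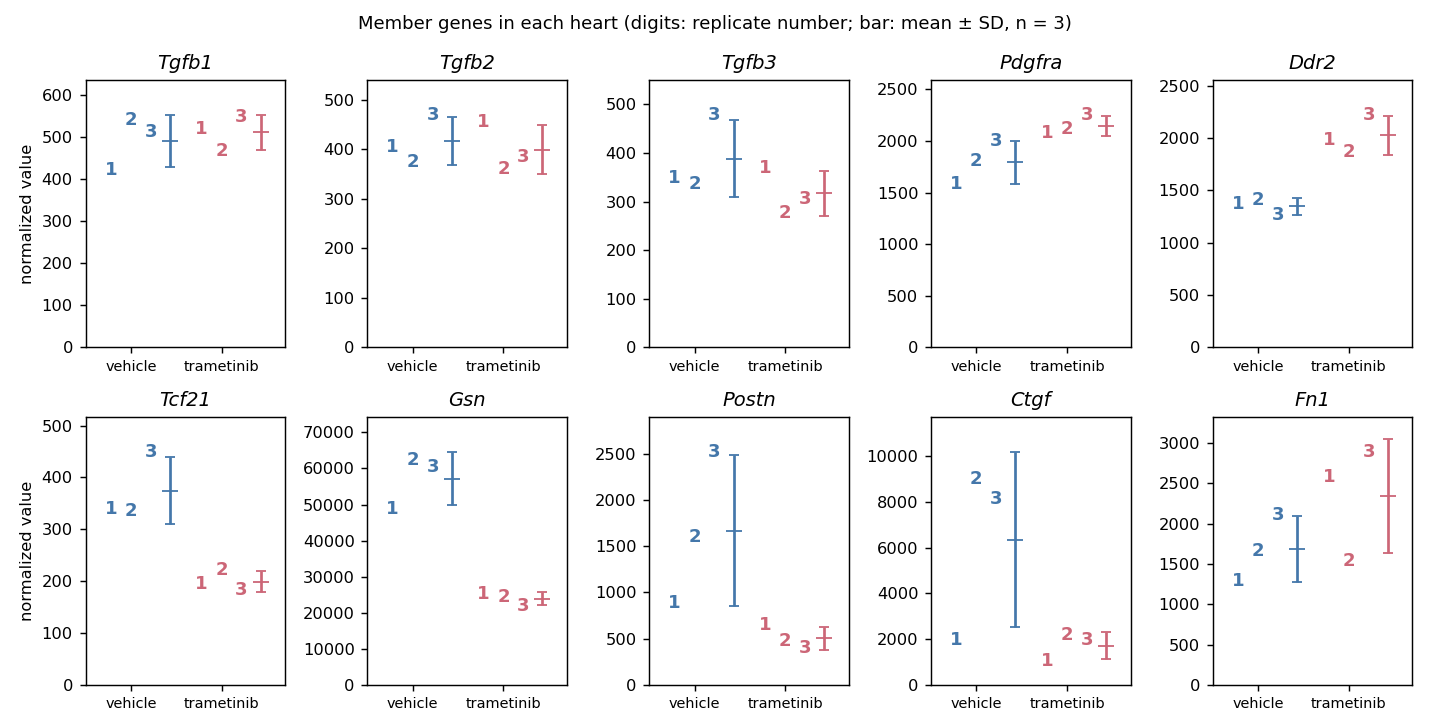
Normalized value (vertical axis, from 0, no unit beyond the authors' scaling) of each of the 10 genes in the 3 vehicle (blue) and 3 trametinib (red) hearts; each digit is 1 heart at its own value and carries its replicate number, and the bar is the mean ± SD. Gsn, Tcf21 and Postn are lower in every trametinib heart than in any vehicle heart, Ddr2 and Pdgfra are higher in every trametinib heart, and Ctgf in vehicle replicate 1 (1959.85) lies among the trametinib hearts.

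The values are estimated counts that the authors had scaled to a common upper quartile, and each heart totalled between 21656431 and 22330993. Estimated reads numbered 14304826 to 16046500 in the vehicle arm and 23033856 to 24691501 in the trametinib arm, so depth went with treatment; its part in the results was not tested. Across all genes the fold change followed transcript length: the median log2 fold change was -0.42 in the shortest of 5 equal bins of genes and 0.31 in the longest. Changes of the 10 genes are therefore also given after a correction of every library for transcript length and GC content, and for other genes it is said where the correction ended the call. After it, 3 of the 10 genes were lower and 1 higher, and 12.1% of 13239 genes were lower and 15.2% higher. Cardiomyocyte and endothelial markers were abundant in every heart, as was the fibroblast gene Dcn (19414 to 24627 in vehicle and 22314 to 24433 in trametinib). Dcn does not stand for the 29 quiescent fibroblast markers tested. Of these 17 were lower (58.6%, against 22.8% of all genes) and 1 higher, and Dcn was among the 11 that did not pass. In a bulk sample, fewer cells of a type and less RNA per cell cannot be told apart.

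The regions before the start sites of Tcf21, Gsn and Postn are shown because these 3 genes fell together in every setting. Each is the 250 bases before an annotated start, from RefSeq on build GRCm38.p6, on the strand of the gene. Of the 10 genes 7 had an entry in that table, Ctgf, Fn1 and Tgfb3 being without one. Capitals mark matches, on either strand, to the Smad element CAGAC, here also found as its reverse complement, to the TEAD element GGAATG, the AP-1 element TGANTCA, the ETS element CCGGAAG, the E-box CAGCTG, the TATA box TATAAA or the CArG box.
Tcf21 (chr10:22820144-22820393, minus strand): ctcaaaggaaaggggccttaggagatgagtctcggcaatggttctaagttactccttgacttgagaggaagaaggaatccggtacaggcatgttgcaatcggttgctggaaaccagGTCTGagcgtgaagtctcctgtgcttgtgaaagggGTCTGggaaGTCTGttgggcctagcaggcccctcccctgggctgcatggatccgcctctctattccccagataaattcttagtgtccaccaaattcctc
Gsn (chr2:35282130-35282379, plus strand): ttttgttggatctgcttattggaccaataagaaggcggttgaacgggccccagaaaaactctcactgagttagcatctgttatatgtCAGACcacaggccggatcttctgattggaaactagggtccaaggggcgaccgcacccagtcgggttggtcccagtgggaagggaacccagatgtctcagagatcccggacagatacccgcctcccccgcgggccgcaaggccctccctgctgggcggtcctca
Postn (chr3:54360857-54361106, plus strand): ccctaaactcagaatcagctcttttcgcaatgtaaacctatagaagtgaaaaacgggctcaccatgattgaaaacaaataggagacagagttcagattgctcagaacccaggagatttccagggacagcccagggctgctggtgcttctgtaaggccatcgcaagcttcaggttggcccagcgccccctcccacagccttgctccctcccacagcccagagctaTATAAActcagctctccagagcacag
The Tcf21 region held 3 Smad elements and the Gsn region 1, and the Postn region held 1 TATA box and no Smad element. The other windows of these genes read differently: the second Postn window held 1 Smad element and no TATA box, and both other Gsn windows held 1 E-box, 1 of them with a Smad element. Of 32851 such regions in the table, 42.2% held a Smad element, 12.6% a TEAD element, 6.75% an AP-1 element, 6.91% the ETS element, 13% the E-box, 1.47% a CArG box and 12.4% a TATA box. The TATA box was added to the search after the sequences were seen. These are matches of letters in short windows. They show no binding, and the Gsn and Postn windows are those whose start lies in a GENCODE M21 transcript, out of 3 and 2 windows in the table.

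Among the ligands, Tgfb1, the form made by many cell types, had normalized values of 422, 541 and 513 in vehicle and 519.95, 467 and 548 in trametinib hearts. The groups overlapped, and the log2 fold change was 0.06 ± 0.12 (SE) with a 95% interval of -0.21 to 0.33 (adjusted p = 0.69). Tgfb2, a ligand needed for heart valve development in mice, measured 404, 374 and 469 in vehicle and 454, 359 and 383 in trametinib. These values overlapped too (log2 fold change -0.06 ± 0.12; 95% interval -0.35 to 0.23; adjusted p = 0.719). Tgfb3 measured 349, 336 and 479 in vehicle and 369, 277 and 305 in trametinib. Its log2 fold change was -0.28 ± 0.17 (95% interval -0.67 to 0.11; adjusted p = 0.207), so no fall was resolved with 3 hearts an arm. Of the 3 ligands 0 passed with limma, 0 with voom and 0 at an unadjusted p below 0.05.

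Per kilobase of transcript, Tgfb1 had the highest level of the ligands in every heart, at 194 to 249 in vehicle and 215 to 252 in trametinib. Tgfb3 had 99.3 to 142 in vehicle and 82.0 to 109 in trametinib, and Tgfb2 had 87.1 to 109 in vehicle and 83.6 to 106 in trametinib. Tgfb3 was above Tgfb2 in every heart except trametinib replicate 2 (82.0 against 83.6), and the ranges of these ligands overlapped in each arm. Tgfb1 made up 48.5% to 57.2% of the summed level of the 3 ligands in vehicle and 52.7% to 58.4% in trametinib, and the sum itself ran from 391 to 487 in vehicle and from 380.3 to 454 in trametinib. The supply of ligand transcript therefore overlapped between the arms in total and for each ligand. After the length and GC correction the log2 fold changes were 0.19 for Tgfb1, -0.32 for Tgfb2 and -0.42 for Tgfb3, with adjusted p of 0.285, 0.117 and 0.101.

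Of 20 genes of the latent complex and its activation 6 were lower (30%) and 3 higher (15%), against 22.8% and 21.6% of all genes, and the list's median was -0.33 on the log2 scale. Ltbp4, which binds latent TGF-beta1 in elastic matrix, measured 9063, 11469.95 and 12259 in vehicle and 4177, 3734 and 3882 in trametinib (-1.47 ± 0.11, SE; adjusted p = 0.000254). Itgav, the alpha subunit of the integrins that release the ligand, had -0.56 ± 0.12 (adjusted p = 0.00752). In the other direction, Lrrc32, which encodes a cell-surface anchor of latent TGF-beta, had 0.94 ± 0.09 (adjusted p = 0.000399), and Furin, the protease that cleaves the precursor, 0.70 ± 0.09 (adjusted p = 0.000995). Thbs1, an activator of the latent complex, measured 147, 1579 and 677 in vehicle and 195, 120.4 and 125 in trametinib and did not pass (adjusted p = 0.0762). The count of lower genes was 2 without vehicle replicate 3 or trametinib replicate 2 and 3 without trametinib replicate 1 or 3. Corrected for length and GC, 6 of this list were lower and 2 higher, where 12.1% and 15.2% of all genes were called.

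The receptor and Smad lists held no lower gene at the threshold with limma, and 0 at an unadjusted p below 0.05 or with voom. Of 5 receptors and co-receptors 2 were higher (40%, against 21.6% of all genes): Tgfbr2, the ligand-binding type II receptor, with 1498, 1365 and 1617 in vehicle and 3008, 2559.96 and 3430.25 in trametinib (log2 fold change 1.00 ± 0.11; adjusted p = 0.000602), and Acvrl1, a type I receptor of endothelium (0.32 ± 0.09; adjusted p = 0.0221). The type I receptor Tgfbr1 measured 786, 1026 and 951 in vehicle and 998, 1007 and 966 in trametinib (adjusted p = 0.402). The count of higher receptors was 1 without vehicle replicate 1 or trametinib replicate 2 or 3. Of 7 genes, 6 Smads and the adaptor Zfyve9, which presents Smads to the receptor, 3 were higher (42.9%): Smad5, a Smad of the bone morphogenetic protein branch (1.03 ± 0.08; adjusted p = 0.000236), Zfyve9 (0.72 ± 0.07; adjusted p = 0.000378) and the common Smad4 (0.25 ± 0.06; adjusted p = 0.00828; 0.15 with adjusted p = 0.13 once corrected for length and GC). Smad2 and Smad3, which carry the TGF-beta signal, had log2 fold changes of -0.00 ± 0.10 (adjusted p = 0.977) and 0.26 ± 0.14 (adjusted p = 0.183).

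Most inhibitors of the pathway did not pass. Of 16 genes 3 were higher (18.8%, against 21.6% of all genes) and 1 lower (6.25%, against 22.8%), and the list's median was 0.04 on the log2 scale. The ubiquitin ligase Smurf2 (0.46 ± 0.06; adjusted p = 0.00112), the Smad corepressor Ski (0.56 ± 0.10; adjusted p = 0.00319) and the inhibitory Smad7 rose, Smad7 with 550.46, 344 and 706 in vehicle and 919, 848 and 739.8 in trametinib (0.70 ± 0.24; adjusted p = 0.0478). Bgn, the proteoglycan biglycan, fell (-0.71 ± 0.19; adjusted p = 0.02). Corrected for length and GC, Ski lost its call (0.30; adjusted p = 0.0546), and 2 of the list were lower and 2 higher. The count of lower genes was 0 without trametinib replicate 2, and 3 and 2 without vehicle replicates 1 and 2.

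Before the length and GC correction, genes that TGF-beta is known to induce in fibroblasts were lower at a share near that of all genes, and few were higher. Of 21 tested, 6 were lower and 1 higher, which is 28.6% and 4.76% against 22.8% and 21.6% of all genes; 3 of the 21 (Smad7, Skil and Pmepa1) are inhibitors counted above, and Il11, at 0 in every trametinib heart and at most 8.14 in vehicle, was below the filter. The fibrillar collagen genes Col1a2 (-0.76 ± 0.17; adjusted p = 0.00927) and Col1a1 (-1.08 ± 0.29; adjusted p = 0.0186) and the collagen V gene Col5a2 (-0.82 ± 0.23; adjusted p = 0.0236) fell. The count of lower genes was 10 without vehicle replicate 1, and 3 without vehicle replicate 3 or trametinib replicate 2. The single higher gene was Smad7, which lost its call without vehicle replicate 1 or trametinib replicate 3. The higher count was 2 without vehicle replicate 3. After the length and GC correction 6 of the list were lower (28.6%) and 2 higher, where 12.1% and 15.2% of all genes were called. The lower share was then above that of all genes.

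**Figure D2:**
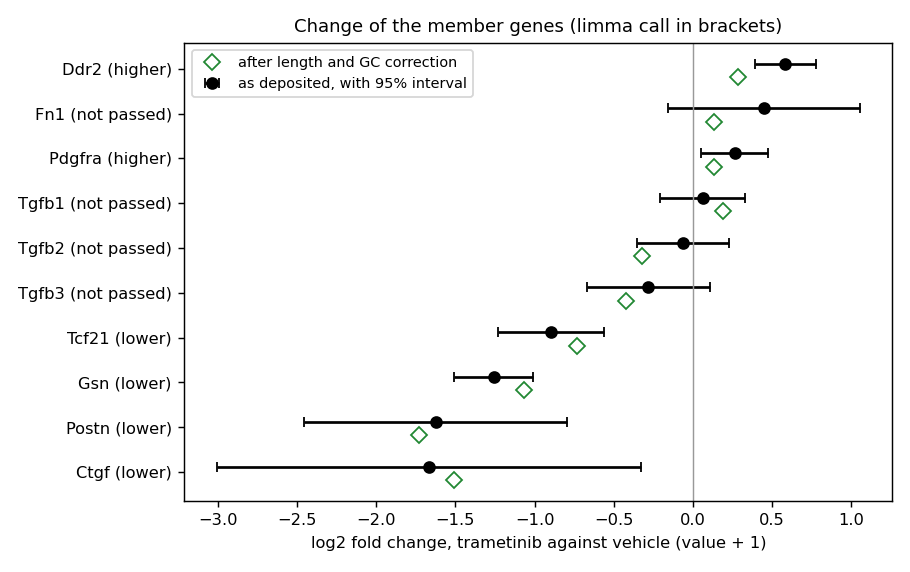
Log2 fold change (trametinib against vehicle, on value + 1) of the 10 genes with its 95% interval (black points), and the fold change after correction for transcript length and GC content (open green diamonds); the vertical line is no change. Ddr2 lies highest at 0.58 and Ctgf lowest at -1.67, with the widest interval.

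The fibroblast genes that are used as markers of the same cells moved in opposite directions. Gsn encodes gelsolin, an actin-severing protein abundant in cardiac fibroblasts. It measured 48778, 62473 and 60359.57 in vehicle hearts and 25273, 24368 and 21789 in trametinib hearts. Every trametinib value was below every vehicle value by a wide margin (log2 fold change -1.26 ± 0.11, SE; adjusted p = 0.000283; -1.06 with adjusted p = 0.000974 once corrected for length and GC). Per kilobase it was the most abundant member, at a mean of 35900.0 in vehicle and 14900.0 in trametinib.

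Tcf21 encodes a basic helix-loop-helix factor of resident cardiac fibroblasts and the epicardium. It measured 339, 334 and 449 in vehicle and 194, 221 and 183 in trametinib. The groups did not overlap (-0.90 ± 0.14; adjusted p = 0.00217; -0.73 with adjusted p = 0.0145 after the correction). Among genes of epicardial cells and of Tcf21's dimerisation partners 3 of 10 were higher (30%, against 21.6% of all genes) and 0 lower (0 also with voom and at an unadjusted p below 0.05), the partners Tcf4 (0.56 ± 0.07; adjusted p = 0.000725) and Tcf12 (0.29 ± 0.08; adjusted p = 0.022) and the factor Gata6 (0.27 ± 0.08; adjusted p = 0.024). Tcf12 lost its call on correcting for length and GC (0.18; adjusted p = 0.208), which left 2 higher. In that list 1 was higher without trametinib replicate 1 or 3, and 2 were lower without vehicle replicate 2. The epicardial factor Wt1 measured 84.1, 289.7 and 96.3 in vehicle and 234, 199 and 363 in trametinib and did not pass (adjusted p = 0.138), and 1 gene of the mesothelial list, Wt1, was tested. The other mesothelial markers were below the filter: Upk3b, Msln and Lrrn4 were at most 3.06 in every heart, Krt19 had means of 3.91 in vehicle and 8.84 in trametinib, and Krt8 had means of 2.77 and 7.23 with 19.9 in trametinib replicate 3.

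Ddr2, a receptor tyrosine kinase for fibrillar collagen, measured 1372, 1413 and 1260.35 in vehicle and 1984, 1865 and 2224 in trametinib. Every trametinib heart was above every vehicle heart (0.58 ± 0.08; adjusted p = 0.00128). After the length and GC correction the change was 0.29 (adjusted p = 0.0433), and the call held. Of 6 other collagen receptors Itga1 was higher (0.65 ± 0.11; adjusted p = 0.00319; 0.13 with adjusted p = 0.453 after the correction) and Itga11, a collagen-binding integrin of fibroblasts, lower (-0.68 ± 0.21; adjusted p = 0.0353). The 1 higher and 1 lower are each 16.7% of the list, against 21.6% and 22.8% of all genes. Itga11 lost its call, leaving 0 lower, without vehicle replicate 2 or 3 or trametinib replicate 2 or 3. Higher genes numbered 2 without vehicle replicate 1 or trametinib replicate 2, and 0 after the correction.

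Pdgfra, the receptor for platelet-derived growth factor on fibroblasts, measured 1581, 1803 and 1996 in vehicle and 2072, 2111 and 2254 in trametinib. The groups did not overlap, and the change was small (0.26 ± 0.09; 95% interval 0.05 to 0.48; adjusted p = 0.0477). Leaving out a heart ended the call for every heart but vehicle replicate 3 (adjusted p from 0.0181 to 0.138), as did correcting for length and GC (0.14; adjusted p = 0.39). Of the PDGF ligands and the other receptor, 1 of 5 was higher (20%, against 21.6% of all genes). It was Pdgfb (0.98 ± 0.19, adjusted p = 0.00462), which encodes a ligand made by endothelium. None of the 5 was lower with limma, against 22.8% of all genes, or with voom, and 1 had an unadjusted p below 0.05. Pdgfrb, the receptor on mural cells, measured 1628, 1300.46 and 1799 in vehicle and 1392, 1240.3 and 1170.25 in trametinib (adjusted p = 0.0863), and 1 gene of this list was lower without vehicle replicate 2. Corrected for length and GC, Pdgfrb was lower (-0.57; adjusted p = 0.0124).

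The difference between these markers was seen inside each library. The log2 ratio of Gsn to Pdgfra was 4.95, 5.12 and 4.92 in vehicle and 3.61, 3.53 and 3.27 in trametinib. That of Tcf21 to Pdgfra was -2.22, -2.43 and -2.15 in vehicle and -3.42, -3.25 and -3.62 in trametinib. That of Ddr2 to Pdgfra was -0.21, -0.35 and -0.66 in vehicle and -0.06, -0.18 and -0.02 in trametinib. The arms were separate for each ratio, by a wide margin for Gsn and Tcf21. For Ddr2 the margin was narrow, with -0.21 in vehicle replicate 1 and -0.18 in trametinib replicate 2. Gsn and Tcf21 thus did not change by a common factor with Pdgfra. The ratios were not corrected for length and GC, after which Ddr2 and Pdgfra had log2 fold changes of 0.29 and 0.14. A ratio within a library shows unequal change and not which gene changed.

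Quiescent fibroblast markers were lower in the majority of cases before the length and GC correction, and not after it. Col1a1, Col1a2 and Col3a1 of this list are also counted among the TGF-beta induced genes above, so the lists do not separate resting from activated fibroblasts. Of 29 tested, 17 were lower, 1 higher and 11 did not pass, or 58.6% lower against 22.8% of all genes, and the median log2 fold change was -0.57. After the correction the median was -0.49, with 13 lower and 2 higher, where 12.1% and 15.2% of all genes were called. The fibroblast surface protein gene Thy1 measured 434, 448 and 487 in vehicle and 196, 177 and 173 in trametinib (-1.33 ± 0.10; adjusted p = 0.000236). The proteoglycan gene Lum (-1.31 ± 0.11; adjusted p = 0.000284), the globin gene Cygb (-1.07 ± 0.09; adjusted p = 0.000284) and Islr (-1.31 ± 0.14; adjusted p = 0.00048) fell as well. The higher gene was Tbx20, a cardiac transcription factor also present in cardiomyocytes (0.64 ± 0.10; adjusted p = 0.0018); 3 were higher without trametinib replicate 2. Dcn stood at 0.08 ± 0.09 on the log2 scale, short of the threshold (adjusted p = 0.506), and Scara5 (-0.07 ± 0.13), Fbln1 (0.06 ± 0.12) and Pi16 (0.37 ± 0.20) did not pass either. The list thus held both genes that fell with Gsn and genes that did not pass.

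**Figure D3:**
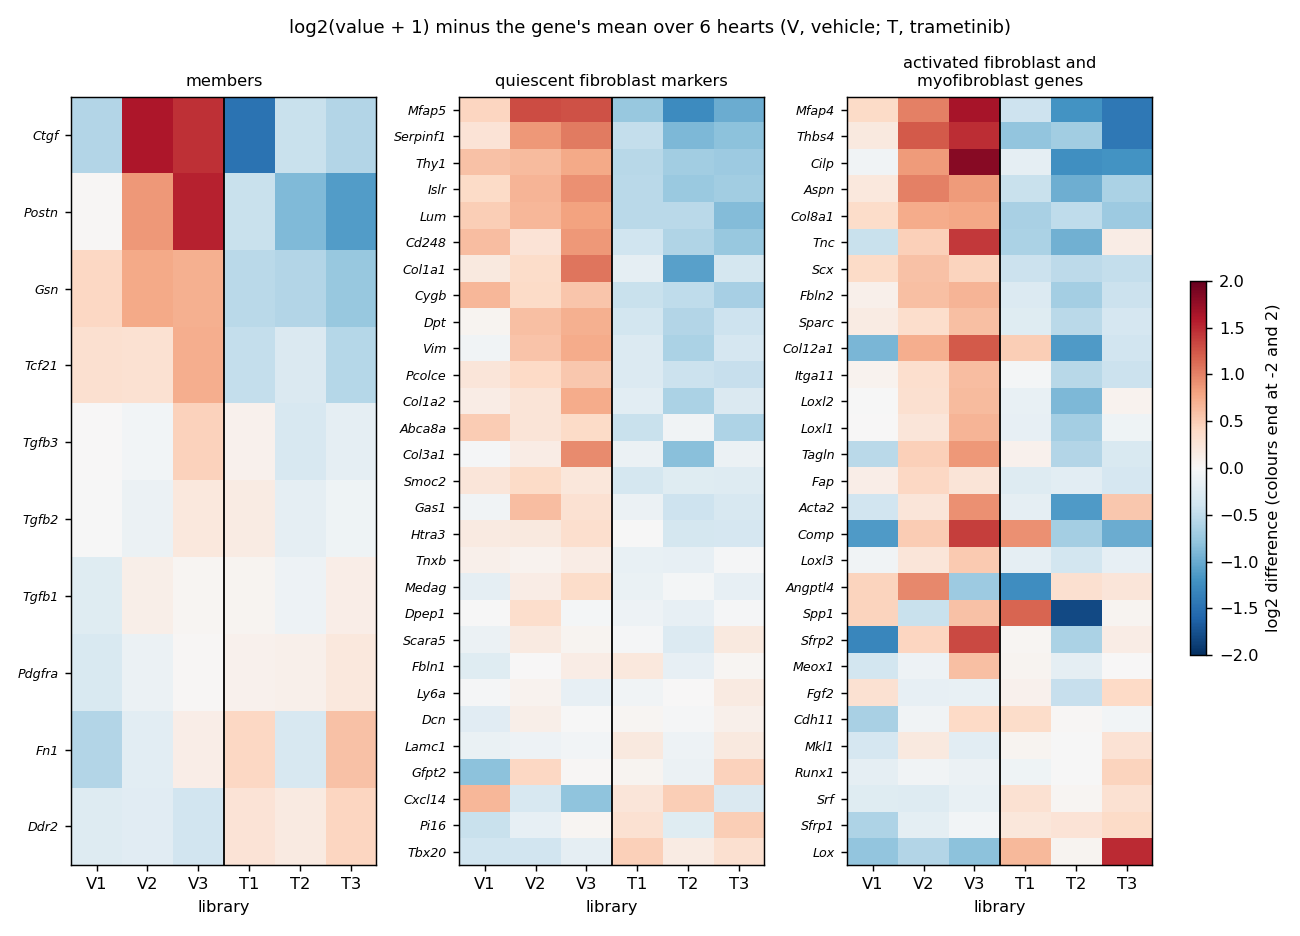
Log2(value + 1) minus each gene's own mean over the 6 hearts (colour, red above and blue below the mean, colours ending at -2 and 2), for the 10 genes, 29 quiescent fibroblast markers and 29 activated fibroblast genes in vehicle (V1 to V3) and trametinib (T1 to T3) hearts, sorted by fold change. Most rows at the top are red in vehicle and blue in trametinib, whereas Ddr2, Tbx20 and Lox, at the bottom, show the opposite; V1 is paler than V2 and V3 for many matrix genes.

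Postn encodes periostin, a matricellular protein that marks activated fibroblasts. It measured 888, 1595 and 2519.67 in vehicle hearts and 642, 472 and 401 in trametinib hearts. The groups did not overlap, although the vehicle values spanned 2.84-fold (log2 fold change -1.62 ± 0.36; adjusted p = 0.00843; -1.73 with adjusted p = 0.0113 after the correction). The SD of the 3 vehicle log2 values was larger than that of 95.9% of tested genes. Leaving out any 1 heart kept the call, with log2 fold changes of -2.02 to -1.26 and adjusted p of 0.00208 to 0.0303.

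Ctgf encodes connective tissue growth factor, a matricellular protein induced by TGF-beta and by YAP. It measured 1959.85, 8993 and 8107 in vehicle and 1055, 2159 and 1943 in trametinib. Vehicle replicate 1 fell between the trametinib values, so the groups overlapped, and the vehicle hearts differed by 4.59-fold among themselves. The log2 fold change was -1.67 ± 0.57 (95% interval -3.01 to -0.33; adjusted p = 0.048), and without vehicle replicate 1 it was -2.38 (adjusted p = 0.00196). The call was lost without any 1 of the other 5 hearts, with adjusted p up to 0.143, and on correcting for length and GC (-1.51; adjusted p = 0.0842). None of the 4 tested relatives of the CCN family passed with limma or voom, and 1, Wisp2, had an unadjusted p below 0.05. Cyr61, also a YAP-induced gene, measured 940.4, 3035 and 1640.43 in vehicle and 849, 1745 and 1018 in trametinib (adjusted p = 0.336), and Wisp2 74.9, 80.1 and 172 in vehicle and 86.5, 35.7 and 34.4 in trametinib (adjusted p = 0.0864). Without vehicle replicate 1 there was 1 lower and 1 higher, and without trametinib replicate 1 there was 1 lower.

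Fn1 encodes fibronectin, the glycoprotein that cells assemble into fibrils on which other matrix is laid. It measured 1284, 1662.5 and 2113 in vehicle and 2584, 1539.9 and 2889 in trametinib. Trametinib replicate 2 lay among the vehicle hearts, and the change did not pass (0.45 ± 0.26; 95% interval -0.16 to 1.06; adjusted p = 0.199). Without that heart it was 0.73 (adjusted p = 0.0291), and corrected for length and GC it was 0.14 (adjusted p = 0.719). Fn1 therefore did not follow Postn, Ctgf and the collagen genes: the log2 ratio of Postn to Pdgfra moved from a mean of -0.22 in vehicle to -2.12 in trametinib and that of Ctgf to Pdgfra from 1.55 to -0.39, against -0.11 and 0.07 for Fn1 to Pdgfra.

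Of 9 receptors and partners of fibronectin 3 were higher (33.3%, against 21.6% of all genes) and 2 lower (22.2%, against 22.8%). Tns1, which encodes tensin, a link from fibronectin-binding integrins to actin, rose (0.79 ± 0.07; adjusted p = 0.000348), as did Itgb3 (1.51 ± 0.43; adjusted p = 0.0238) and Itga4 (0.72 ± 0.24; adjusted p = 0.0441). Itga5, the alpha subunit of the main fibronectin receptor, fell (-0.36 ± 0.11; adjusted p = 0.035), as did Itgav. Lower genes numbered 1 without vehicle replicate 2 or 3 or trametinib replicate 2 or 3, and higher genes 1 without trametinib replicate 3. Corrected for length and GC, Itgb3 (adjusted p = 0.0727) and Itga4 (adjusted p = 0.534) lost their calls. In the gelsolin family, Capg (-0.92 ± 0.16; adjusted p = 0.00291) and Scin (-1.11 ± 0.29; adjusted p = 0.0176) fell with Gsn, and Flii (0.31 ± 0.05; adjusted p = 0.003), Svil (0.32 ± 0.07; adjusted p = 0.00645) and Avil (1.145 ± 0.40; adjusted p = 0.0495) rose. Of the 5 relatives of Gsn tested, 40% were lower and 60% higher, against 22.8% and 21.6% of all genes. Lower relatives numbered 1 without vehicle replicate 3 or trametinib replicate 2 or 3. After the length and GC correction 1 was lower and 1 higher. The correction ended the calls of Capg (adjusted p = 0.154), Flii (adjusted p = 0.145) and Svil (adjusted p = 0.841).

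Genes of activated fibroblasts and myofibroblasts were lower in 11 of 29 cases and higher in 3. These are 37.9% and 10.3%, against 22.8% and 21.6% of all genes. Their median log2 fold change was -0.53. After the correction it was -0.48, with 13 lower and 2 higher, where 12.1% and 15.2% of all genes were called. Col8a1, a short-chain collagen gene, measured 576, 753 and 769 in vehicle and 285, 315 and 269.5 in trametinib (-1.26 ± 0.13; adjusted p = 0.000436). The tendon and fibroblast factor Scx (-0.95 ± 0.10; adjusted p = 0.00048), the proteoglycan gene Aspn (-1.37 ± 0.22; adjusted p = 0.00226) and Sparc (-0.75 ± 0.12; adjusted p = 0.00234) fell with it. Those that rose were Srf, the transcription factor of actin genes (0.44 ± 0.08; adjusted p = 0.00433), the collagen cross-linking enzyme gene Lox (1.46 ± 0.33; adjusted p = 0.00932) and the Wnt antagonist gene Sfrp1 (0.58 ± 0.14; adjusted p = 0.0145; 0.35 with adjusted p = 0.148 after the correction). Acta2, the smooth muscle actin gene that defines myofibroblasts and is also expressed by vascular muscle, measured 2904, 4502 and 7113 in vehicle and 3335, 1721 and 5521 in trametinib and did not pass (-0.52 ± 0.45; adjusted p = 0.387). The fall of Postn was therefore accompanied by falls of matrix genes, and not by a resolved change of Acta2.

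**Figure D4:**
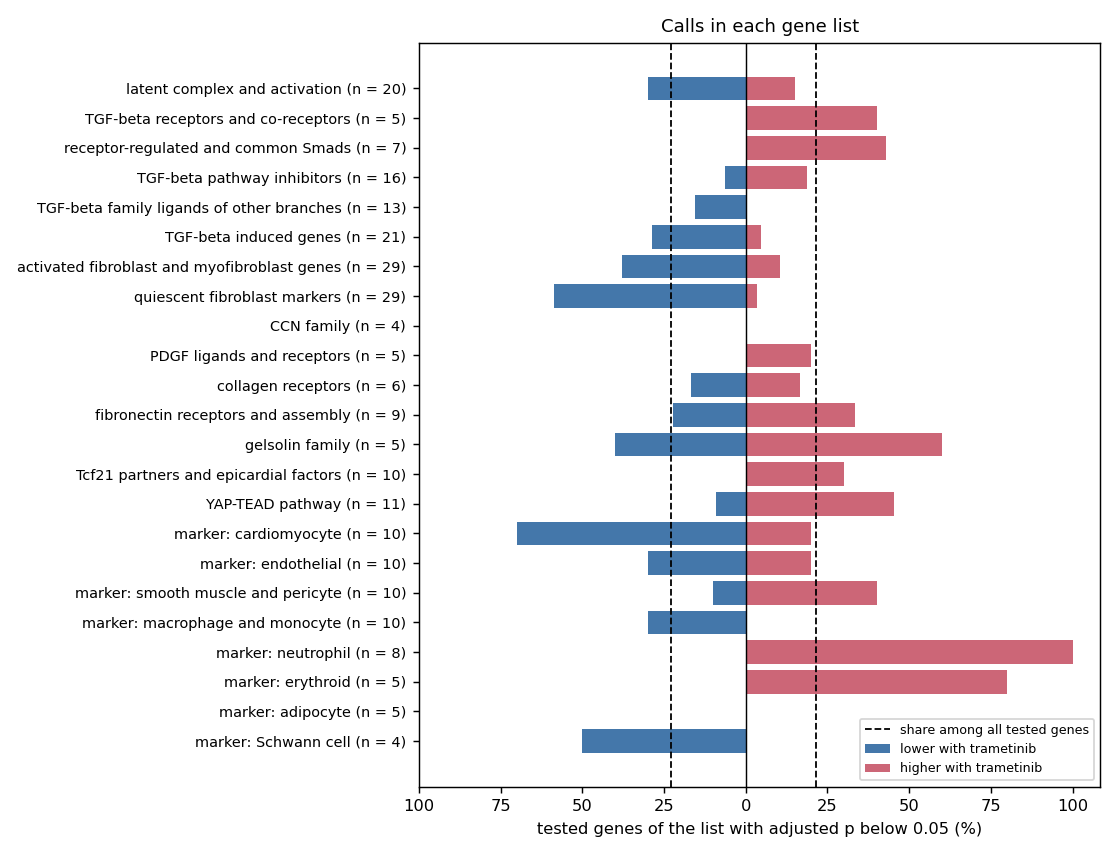
Share of the tested genes in each list (n in brackets) that were lower (blue bars, to the left) or higher (red bars, to the right) with trametinib at an adjusted p below 0.05, in percent; dashed lines give the shares among all tested genes, 22.8% lower and 21.6% higher. Quiescent fibroblast markers reach 58.6% lower, and all 8 neutrophil markers are higher.

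The vehicle hearts also differed among themselves in these genes. Vehicle replicate 1 held the lowest vehicle value of 24 of 29 activated fibroblast genes, 21 of 29 quiescent markers and 16 of 21 TGF-beta induced genes, where it held the lowest of 33.6% of all tested genes. Vehicle replicate 3 held the highest of 21, 18 and 16 of these, against 41.4% of all. Trametinib replicate 2 held the lowest trametinib value of 20, 19 and 13, against 43.1% of all. Postn, Ctgf and Fn1 were each lowest in vehicle replicate 1. Genes of 1 list share a library, so these counts are a description.

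Markers of other cells are set against the shares of all genes, 22.8% lower and 21.6% higher. Endothelial markers (30% lower and 20% higher) and the lower share of macrophage markers (30%) were near these. After the length and GC correction the shares of all genes were 12.1% and 15.2%. All 8 neutrophil markers were higher with limma, 6 with voom, and 7 to 8 with a heart left out. Their summed values ran from 144 to 598 in vehicle hearts and from 1793 to 3863 in trametinib hearts. Higher erythroid markers numbered 4 of 5 (19810.0 to 27340.0 and 54940.0 to 194100.0). Of 10 macrophage and monocyte markers 3 were lower (5 without trametinib replicate 3) and none higher (9235 to 10920.0 and 6663 to 8737). Of 10 smooth muscle and pericyte markers 4 were higher and 1 lower (20730.0 to 25000.0 and 23980.0 to 29050.0), the lower count being 0 without trametinib replicate 1 or 3 and 2 without vehicle replicate 1, and the higher count 2 after the length and GC correction. Of 10 cardiomyocyte markers 7 were lower and 2 higher (2204000.0 to 2276000.0 and 1943000.0 to 2029000.0), and 3 lower and 4 higher after the length and GC correction. Of 10 endothelial markers 3 were lower and 2 higher (38850.0 to 43840.0 and 35950.0 to 38110.0), with 0 or 1 higher without any 1 heart, and 2 lower and 3 higher after the correction. Macrophage markers had 2 lower after it. Of 4 Schwann cell markers 2 were lower (1 without vehicle replicate 3 or trametinib replicate 2 or 3), none of 5 adipocyte markers passed with limma, with voom or at an unadjusted p below 0.05 (0 by each), and the mesothelial list had 1 tested gene, Wt1. The part of these cells in the changes of the 10 genes was not tested.

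The place of each gene against its transcript length was as follows. Tcf21, Gsn and Ctgf, at 1528, 1593 and 1744 nt, lie in the bin of genes between 1329.4 and 1935 nt, whose median log2 fold change was -0.14. Postn, at 2568 nt, lies in the middle bin, with a median of -0.00, and Ddr2 and Fn1, at 5120 and 6325 nt, in the longest, with 0.31. Pdgfra and Tgfb3, at 3220.0 and 3383 nt, lie in the bin with a median of 0.14. Tgfb1, at 2175 nt, lies in the middle bin and Tgfb2, at 4300 nt, in the longest. The fold changes of Gsn, Postn and Tcf21 lay far below the median of their bin, and those of Pdgfra (0.26) and Fn1 (0.45) were nearer to it. Ddr2 (0.58) lay above the median of its bin, and Tgfb2 (-0.06) and Tgfb3 (-0.28) below theirs.

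**Figure D5:**
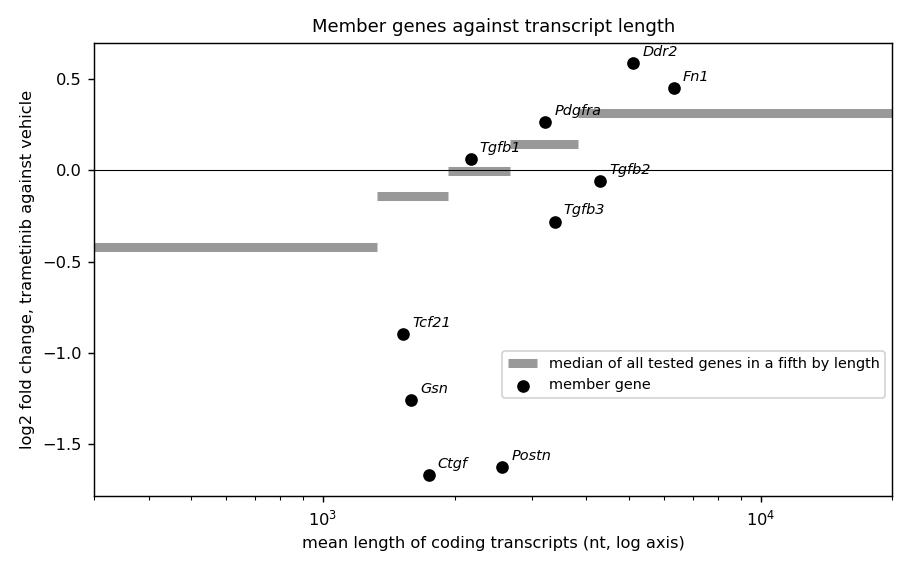
Log2 fold change (trametinib against vehicle) of the 10 genes (black points) against the mean length of their coding transcripts (nt, log axis), with the median of all tested genes in each of 5 bins by length (grey bars, the outer bars ending at the limits of the axis). Medians run from -0.42 to 0.31; Tcf21, Gsn, Postn and Ctgf lie well below them and Pdgfra and Fn1 near them.

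The genes nearest to each member in profile were found by Euclidean distance between mean-centred log2 values over the 6 libraries, over all tested genes. For Gsn they were Haus8 (distance 0.156) and Col8a1 (0.162), for Postn Bdh2 (0.505) and Cilp (0.525), a matrix gene of the activated list, and for Tcf21 Efcab4a (0.165) and Ccl27a (0.186). Ddr2 was nearest to Ccdc55 (0.0823) and Galntl2 (0.1), Pdgfra to Rbm41 (0.07) and Rictor (0.0731), and Fn1 to Npr3 (0.223) and Cit (0.237). Ctgf had no close neighbour, the nearest being 2610524H06Rik at 0.921 and Kcnj14 at 1.06. The ligands were nearest to Pla2g6 (0.0817) and Afap1l1 (0.0826) for Tgfb1, Zfp513 (0.0971) and Mina (0.108) for Tgfb2, and Npr1 (0.204) and Zfp707 (0.205) for Tgfb3. With 6 libraries and a large share of genes separating the arms, such neighbours are many and share the treatment contrast.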

How the data were processed

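Messenger RNA of 6 hearts was sequenced from a stranded kit on a single-end run, per the labels' protocols; the RNA kit used for each heart, of 2 named, is not stated. The tools RSEM, DESeq2, SAMtools and Picard 1.64, and build mm9, appear without a stated role, per the submitters' processing notes. The deposited values are a normalized signal: estimated counts divided by 1 factor per library, with an upper quartile of values above 0 near 998 to 999 in each. Between 87.5% and 89.4% of low values were within 0.05 of a whole multiple of the library's step, too few to recover counts; total divided by step gave the estimated depth. The table also holds 1 further control column of per-sample values that matches no labelled sample, and it was left out.

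Genes with a mean of at least 10 (13581) were fitted with limma 3.58.1 (R 4.3.3, mean-variance trend) on log2(value + 1), a scale that understates changes of low genes, with Benjamini-Hochberg adjustment over all of them and a threshold of 0.05. The correction subtracted a lowess curve (span 0.3) on the mean length, then the GC content, of GENCODE M21 coding transcripts, known for 97.5% of genes. The code was tested on simulated data. Members and lists were chosen with earlier results of these data known. In each list the up to 4 genes with the smallest p were named, with others added to account for counts or after their values were seen. Gene lists overlap. The values of 1 gene that this rule names are not reported here.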

Additional observations from a re-analysis of the deposited data

How the results depend on the processing

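Alternatives covered pseudocounts of 0.5 and 5, no filter, a mean of at least 50, quantile normalization, median-of-ratios scaling, correction for length and GC, limma's voom, the replicate block and each heart left out. Gsn, Postn, Tcf21 and Ddr2 kept their call in all 15 alternatives. The 4 lower members numbered 3 to 4 and the 2 higher members 1 to 2 with a heart left out. The higher count was 1 without a filter, with quantile normalization, with the length and GC correction and with voom, where Pdgfra was lost. Ctgf was lost without a filter (adjusted p = 0.0567), with median-of-ratios scaling (adjusted p = 0.0504) and after the correction. The cause was not tested. Over all genes, 1597 were lower and 2006 higher after the correction, of which 1355 and 1579 were also called without it; with a heart left out, 2491 to 2856 were lower and 2143 to 2804 higher. The log2 fold change of Tgfb1 ran from -0.045 (without vehicle replicate 1) to 0.13 and that of Tgfb2 from -0.16 to 0.030 with a heart left out, so neither has a direction: Tgfb2 was 0.030 without vehicle replicate 3 and 0.011 without trametinib replicate 2. With the replicate number as a block, 4 members were lower and 2 higher, and 2877 and 2885 of all genes. Same-numbered hearts correlated at 0.238, 0.0191 and 0.5 in their deviations, and different-numbered hearts at -0.383 to 0.285. With 3 hearts an arm these values cannot settle whether the numbers pair the hearts. The block changed no member's call, and the adjusted p of Ctgf was 0.00609 with it (limma). At 3 hearts an arm the interval of Tgfb3 spans -0.67 to 0.11, which limits what can be said of the ligands.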

Other observations

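Of 11 genes of the YAP and TEAD pathway, 5 were higher and 1 lower (2 lower with voom). These are 45.5% and 9.09%, against 21.6% and 22.8% of all genes tested, and the list's median was 0.28 on the log2 scale. Of the factors themselves (Yap1, Wwtr1 and Tead1 to Tead4) Yap1 and Tead1 were higher and Tead3 lower. Tead1, which encodes a DNA-binding partner of YAP, measured 5924, 5679.51 and 6123 in vehicle and 11324, 10241 and 11629 in trametinib (log2 fold change 0.90 ± 0.06, SE; adjusted p = 0.000216). The kinase gene Lats2 (0.83 ± 0.11; adjusted p = 0.00105) and Amotl2 (0.65 ± 0.09; adjusted p = 0.0013) rose as well. So did Lats1 (0.31 ± 0.09; adjusted p = 0.0273) and Yap1 itself (0.28 ± 0.09; adjusted p = 0.0318), while Tead3 fell (-0.23 ± 0.08; adjusted p = 0.0431). Higher genes numbered 3 after the length and GC correction and without any 1 of vehicle replicates 1 and 2 and trametinib replicates 1 and 3. The lower count was 0 in each of these. The correction ended the calls of Yap1 (0.16; adjusted p = 0.252), Lats1 (-0.03; adjusted p = 0.866) and Tead3 (adjusted p = 0.226). Ankrd1, a YAP-responsive gene abundant in cardiomyocytes, measured 39654, 34661 and 29962 in vehicle and 25249, 31321 and 23413 in trametinib (adjusted p = 0.0513).

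Among ligands of other branches of the TGF-beta family, 2 of 13 tested were lower (15.4%, against 22.8% of all genes) and 0 higher (0 also with voom and at an unadjusted p below 0.05). Bmp4, a bone morphogenetic protein, measured 240.06, 189.5 and 251 in vehicle and 94.96, 113 and 108 in trametinib (-1.09 ± 0.15; adjusted p = 0.00111), and Gdf10 53.5, 70.9 and 62.4 in vehicle and 28.2, 17.8 and 21.7 in trametinib (-1.44 ± 0.25; adjusted p = 0.00319). Mstn, which encodes myostatin, measured 13.8, 70.9 and 40.7 in vehicle and 20.7, 14.3 and 8.14 in trametinib and did not pass (adjusted p = 0.127), and Inhba, a subunit of activin, 21.4, 15.4 and 33.9 in vehicle and 36.7, 42.8 and 28.0 in trametinib (adjusted p = 0.177).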
